A study of Mus musculus with 6 samples.

Results

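The genes described are the mouse receptors for the constant (Fc) part of immunoglobulin G and their closest signalling partners. They are the activating receptors Fcgr1, Fcgr3 and Fcgr4, the inhibitory receptor Fcgr2b, the adaptors Fcer1g and Tyrobp, the kinase Syk and the neonatal Fc receptor Fcgrt. They were chosen by name, and all 8 were found among the 19386 genes of the authors' deposited table of expression. Splicing events were added by position: 17 of 10376 JuncBASE events and 4 of 3887 rMATS retained introns lay within these genes on their strand.

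Macrophages were grown from the bone marrow of wild-type C57BL/6 mice that had been exposed to room air (3 libraries) or to cigarette smoke (3 libraries), and were harvested on day 11 of culture in medium with L929 supernatant, the source of the growth factor that drives macrophage differentiation. All 6 cultures were treated alike, and what differed was the exposure of the animal. The duration of the exposure and the age of the mice are not given in the sources used here, and the labels do not tie each library to an animal, so the p-values for splicing measure only the spread between these libraries, and those for expression come from the authors' fit to 24 libraries, 18 of them not analysed here. The comparison asks whether exposure of the mouse left a difference in macrophages grown from its marrow.

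Immunoglobulin G bound to a particle or an immune complex clusters Fc gamma receptors on the macrophage surface. The activating receptors signal through the paired tyrosines of Fcer1g, an adaptor they need for surface expression, and Src family kinases phosphorylate these tyrosines so that Syk can dock and start phagocytosis and cytokine release. Fcgr2b carries an inhibitory tyrosine motif in its own tail and recruits the lipid phosphatase encoded by Inpp5d, which limits the response. Tyrobp is the adaptor of other myeloid receptors such as Trem2 and also feeds into Syk, while Fcgrt carries immunoglobulin G back out of endosomes and protects it from breakdown.

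The sequences at the splice choices described further on are shown first, because the Fcgr2b and Syk exons add or remove stretches of the protein. They were read from the GENCODE M21 transcripts on GRCm38, and each lies within annotated coding sequence. The Fcgr2b exon (chr1:170963325-170963465, minus strand) has 141 bases, or 47 codons, and inserts residues into the cytoplasmic tail. Its first 57 bases (19 codons), in capitals, are all that a shorter annotated form of the exon keeps, and the part in lower case that this form drops begins with gt, as an intron does.
Fcgr2b optional exon: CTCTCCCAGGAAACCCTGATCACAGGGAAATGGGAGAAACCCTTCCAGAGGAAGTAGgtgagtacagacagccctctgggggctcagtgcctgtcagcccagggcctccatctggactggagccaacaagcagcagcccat
The Syk exon (chr13:52624708-52624776, plus strand) has 69 bases, or 23 codons, in the linker between the SH2 domains and the kinase domain.
Syk optional exon: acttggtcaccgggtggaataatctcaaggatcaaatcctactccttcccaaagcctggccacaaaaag
An exon of Fcgr3 (shown from chr1:171057919-171057948, minus strand) can begin at either of a pair of acceptors 3 bases apart, and the capitals mark the codon that the upstream acceptor adds.
Fcgr3 exon start: CAGctcttccgaaggctgtggtgaaactgg
An exon of Fcgrt (shown from chr7:45102402-45102431, minus strand) can end at a donor 12 bases further on, which adds the 4 codons in capitals.
Fcgrt exon end: tggagaagatattaaatgGTCAGAAGAGGG
In Fcer1g, 1 annotated transcript extends an exon by 74 bases (chr1:171230922-171230995, minus strand), which is not a multiple of 3, and the capitals mark the first bases of the standard intron that this extension reads through.
Fcer1g exon extension: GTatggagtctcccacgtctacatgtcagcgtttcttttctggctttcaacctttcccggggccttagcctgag

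None of the 8 genes differed between the groups at an adjusted p under 0.05 in the authors' deposited table, where 7.69% of the 12082 genes tested did (4.15% higher and 3.53% lower after smoke). The value for Fcgr1 came closest, 1.43-fold higher after smoke, and it was the only member with an unadjusted p under 0.05, which 22.8% of all genes tested had. The log2 fold changes of the members ran from -0.12 to 0.51 with a median of 0.24, while the median of all genes tested was -0.0029. In sign, 6 of the 8 were higher after smoke and 2 lower, but 4 of the 6 (Fcer1g, Tyrobp, Fcgrt and Syk) turned to the other sign once a trend with transcript length and GC content was taken out of all fold changes, so no common direction can be given. After that step 1.27% of genes and again 0 of the 8 members were past the threshold. All 8 genes passed the authors' filter on low counts. Expression was deposited as a mean of size-factor-normalized counts for each group, so no value per library and no SD can be shown.

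Fcgr1, which encodes the high-affinity receptor for monomeric immunoglobulin G (ENSMUSG00000015947.10, chromosome 3, 96282909 to 96293969, minus strand, GRCm38), stood at 536.6 normalized counts after room air and at 761.6 after smoke by the authors' deposited table. The authors gave this as a log2 fold change of 0.51 (SE 0.26, p = 0.0497, adjusted p = 0.218). The 95% interval of the fold, computed from the deposited standard error, ran from 1.00 to 2.03. After the GC and length trend was removed, the log2 fold change was 0.40 (adjusted p = 0.628).

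Fcgr3, a low-affinity activating receptor for immune complexes (ENSMUSG00000059498.13, chromosome 1, 171051174 to 171064935, minus strand), was nearly level by the authors' deposited table, with 1894 normalized counts after room air and 1875 after smoke. The authors' log2 fold change was -0.01 (SE 0.35, adjusted p = 0.989), and the 95% interval of the fold ran from 0.615 to 1.60. Fcgr4, an activating receptor restricted to some immunoglobulin G subclasses (ENSMUSG00000059089.4, chromosome 1, 171018920 to 171029761, plus strand), was the member with the fewest normalized counts, 120.1 after room air and 110.2 after smoke by the authors' deposited table. The authors' log2 fold change was -0.12 (SE 0.30, adjusted p = 0.875), and the interval of the fold ran from 0.610 to 1.39. For both receptors the intervals reach well to either side of no change.

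Fcgr2b, the inhibitory receptor of the family (ENSMUSG00000026656.15, chromosome 1, 170958617 to 170976547, minus strand), stood at 611.8 normalized counts after room air and 755.0 after smoke by the authors' deposited table. The authors' log2 fold change was 0.31 (SE 0.28, adjusted p = 0.563), and the 95% interval of the fold ran from 0.845 to 1.82. Fcgr2b and Fcgr3 are close relatives that lie near each other on the chromosome. Of the distinct runs of 50 bases in annotated Fcgr3 transcripts, 9.58% also occur in Fcgr2b transcripts, and 2.92% of those of Fcgr2b occur in Fcgr3. These are shares of sequence, not of reads. Fcgr3 had more normalized counts (1894 after room air, against 611.8), so the uncertain share of Fcgr2b reads may be well above 2.92%. That share was not measured, and it also bears on the ratios to Fcgr2b below. No other pair of members shared such a run. Genes that overlap Fcgr2b (the antisense Gm38204) and Fcgr4 (the small RNA Gm26110) had means of under 1 normalized count in the authors' deposited table.

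The activating and inhibitory receptors compete for the same ligand, and their balance is often given as a ratio. Per kilobase of annotated exons, the group mean of Fcgr3 was 10.3 times that of Fcgr2b in room air and 8.29 times in smoke. The same ratio was 1.96 and 2.26 for Fcgr1, and 0.905 and 0.673 for Fcgr4. Over the 3 activating receptors together it was 13.2 in room air and 11.2 in smoke. Without values per library these ratios carry no error and were not tested, and they move with the length chosen: with the longest transcript in place of all exons, the ratios to Fcgr2b in room air and smoke were 8.15 and 6.54 for Fcgr3, 1.20 and 1.38 for Fcgr1, and 0.554 and 0.412 for Fcgr4.

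The adaptors were the most abundant members per kilobase. Fcer1g (ENSMUSG00000058715.11, chromosome 1, 171229572 to 171234365, minus strand) stood at 2249 normalized counts after room air and 2628 after smoke by the authors' deposited table. The authors' log2 fold change was 0.22 (SE 0.13, p = 0.0776, adjusted p = 0.284), with the smallest standard error among the 8, and the 95% interval of the fold ran from 0.983 to 1.39. Tyrobp (ENSMUSG00000030579.10, chromosome 7, 30413760 to 30417585, plus strand) went from 1305 to 1563 normalized counts by the authors' deposited table, a log2 difference of 0.26 (SE 0.19, adjusted p = 0.437) with an interval of the fold from 0.927 to 1.54. Neither passed the threshold, and after removal of the GC and length trend the log2 values were -0.06 for Fcer1g and -0.10 for Tyrobp.

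Syk, the kinase on which both adaptors converge (ENSMUSG00000021457.14, chromosome 13, 52583173 to 52648792, plus strand), stood at 1905 normalized counts after room air and 1908 after smoke by the authors' deposited table. The authors' log2 fold change was 0.01 (SE 0.20, adjusted p = 0.993), and the 95% interval of the fold ran from 0.766 to 1.31. Fcgrt (ENSMUSG00000003420.8, chromosome 7, 45092990 to 45103851, minus strand) stood at 235.4 and 279.4 normalized counts by the authors' deposited table, a log2 difference of 0.26 (SE 0.32, adjusted p = 0.695) with an interval of the fold from 0.773 to 1.85.

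**Figure D1:**
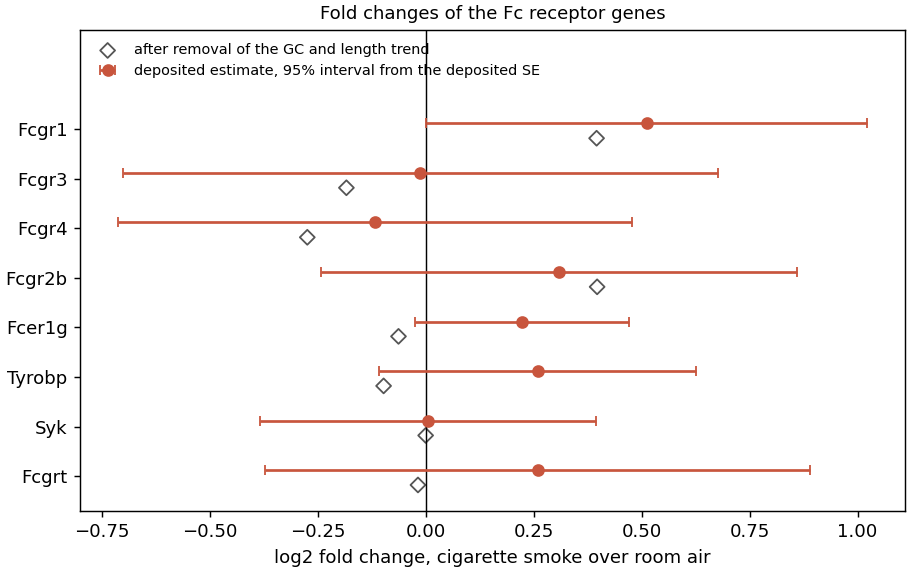
Log2 fold change of cigarette smoke over room air (x axis) for the 8 genes (y axis). Filled points are the deposited estimates with 95% intervals from the deposited standard errors, and open diamonds are the same estimates after removal of the trend with transcript GC content and length. Only the interval of Fcgr1, from 1.00 to 2.03 as a fold, does not reach across 0, and the diamonds of Fcer1g, Tyrobp and Fcgrt lie at -0.06, -0.10 and -0.02.

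Levels of different genes were compared per kilobase of annotated exons. In room air the order of the group means was Fcer1g at 2573 normalized counts per kilobase, Tyrobp at 1957, Fcgr3 at 1091, Fcgr1 at 207.3, Syk at 203.4, Fcgrt at 112.0, Fcgr2b at 105.7 and Fcgr4 at 95.6. In smoke the order was the same, with Fcer1g at 3007, Tyrobp at 2343, Fcgr3 at 1080, Fcgr1 at 294.2, Syk at 203.8, Fcgrt at 132.9, Fcgr2b at 130.4 and Fcgr4 at 87.8. The 3 most abundant genes stood well apart from the other 5. Whether neighbours in the lower part of the order differ beyond their spread cannot be said, since no value per library was given. With the length of the longest transcript, a choice added after seeing the data, Syk (355.1 in room air) moved above Fcgr1 (207.3), and Fcgr2b (172.6) above Fcgrt (133.0).

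**Figure D2:**
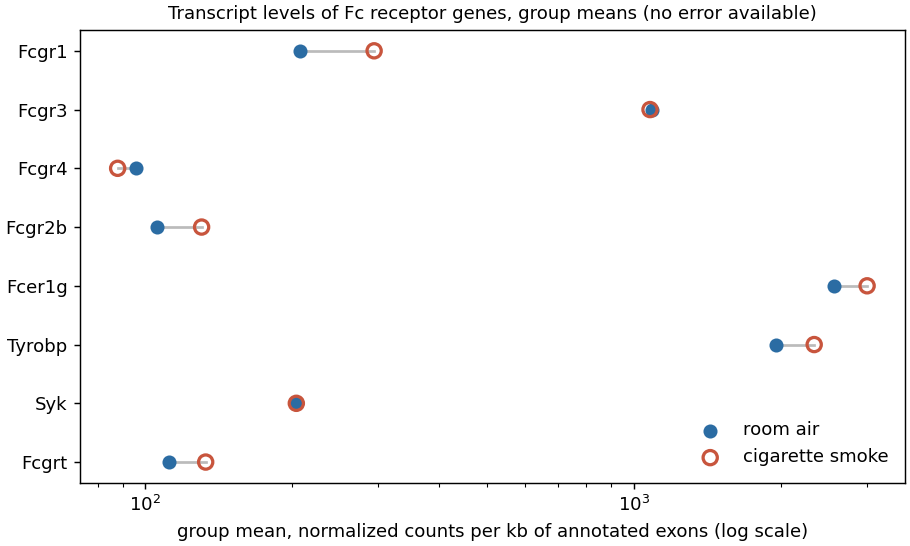
Group mean of size-factor-normalized counts per kilobase of annotated exons (x axis, log scale) for the 8 genes, in room air (filled) and cigarette smoke (open). Fcer1g, Tyrobp and Fcgr3 lie between 1080 and 3007 and the other genes between 87.8 and 294.2, and no error bars can be drawn because only group means were deposited.

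The libraries carried the markers of macrophages. All 10 macrophage markers were in the authors' deposited table, summing to 57778 normalized counts after room air and 58500 after smoke, with 5 higher and 5 lower after smoke. Past the threshold was 1 of the 10, against 7.69% of all genes: Spi1, named after its values were seen, which encodes a transcription factor of the myeloid lineage, was higher after smoke by 0.41 on the log2 scale (SE 0.11, adjusted p = 0.00813) by the authors' values and by 0.094 (adjusted p = 0.856) once the GC and length trend was removed. Mrc1, the mannose receptor gene and the marker with the largest log2 difference, also named after its values were seen, stood at 3601 normalized counts after room air and 2196 after smoke by the authors' values (-0.71, SE 0.27, adjusted p = 0.0836). Fc gamma receptors are also made by other blood cells, whose markers summed to 0.322 and 0.508 normalized counts in room air and smoke for neutrophils (4 of 10 markers listed), 6.68 and 4.14 for B cells (4 of 8), 3.30 and 2.15 for NK and T cells (2 of 6) and 1.66 and 1.02 for dendritic cells (4 of 6). Mast cell and basophil markers summed to 54.8 and 48.2 (2 of 7), nearly all of it from Kit, while the mast cell genes Cpa3, Fcer1a and Ms4a2 had no row in the table used here. The part of these cells in the values of the receptors was not tested. In these bulk cultures, fewer cells that make a transcript and less of it per cell cannot be told apart.

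Around the 8 members, 6 lists of pathway genes held 87 genes, of which 76 had an adjusted p. By the authors' deposited table, adjusted p-values under 0.05 were found for 8 of the 76 (10.5%), against 7.69% of all genes, 6 of them higher and 2 lower after smoke. None of the 8 kept an adjusted p under 0.05 once the GC and length trend was removed, but the sizes moved unequally. On the log2 scale Fgr then stood at 1.01 (adjusted p = 0.0826), Dok2 at 0.86, Arpc1b at 0.29, Rac2 at 0.26, Vav3 at -0.27, Ptprc at -0.23, Brk1 at 0.18 and Csk at 0.00077. The lists were chosen with earlier results of these data known, and nothing particular to them is claimed.

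Among 19 kinases and substrates that act with Syk, 1 rose and 1 fell, against 4.15% of all genes higher and 3.53% lower. The median log2 fold change of the list was -0.02. Fgr, a Src family kinase of myeloid cells, rose from 26.4 to 55.4 normalized counts by the authors' deposited table, or by 1.09 on the log2 scale (SE 0.32, adjusted p = 0.0172). Vav3, an exchange factor that activates Rac proteins, fell from 516.4 to 384.6 normalized counts by the authors' deposited table, a log2 value of -0.43 (SE 0.15, adjusted p = 0.0467). The list's most abundant genes, the kinase gene Prkcd and the phospholipase gene Plcg2, stood at -0.01 (SE 0.12) and at -0.03 (SE 0.14) on the log2 scale by the authors' deposited table. Adjusted over every gene with a p-value, without the deposited filter, Vav3 had an adjusted p of 0.0737.

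Of 12 genes listed as brakes on receptor signalling, 2 rose and 1 fell, against 4.15% of all genes higher and 3.53% lower. The median log2 fold change of the list was 0.07. Dok2, an adaptor that dampens tyrosine kinase signalling, rose from 102.9 to 233.6 normalized counts by the authors' deposited table, or by 1.17 on the log2 scale (SE 0.32, adjusted p = 0.00994). It overlaps Xpo7 on the opposite strand. Csk, the kinase that holds Src family kinases inactive, rose by 0.29 on the log2 scale (SE 0.10, adjusted p = 0.0404) by the authors' deposited table, with an adjusted p of 0.0636 without the deposited filter. Ptprc, which encodes the phosphatase CD45 and can promote as well as limit Src family kinases, fell from 3763 to 2569 normalized counts by the authors' deposited table, a log2 value of -0.55 (SE 0.13, adjusted p = 0.00196). It shares its strand with the overlapping transcript A130071D04Rik, at 26.2 and 11.4 normalized counts. The other abundant gene of the list, Inppl1, a lipid phosphatase gene, stood at -0.03 on the log2 scale (SE 0.18, adjusted p = 0.957) by the authors' deposited table.

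Of 14 genes of the actin machinery that closes the phagocytic cup, 3 rose and none fell, against 4.15% of all genes higher and 3.53% lower, and the median log2 fold change was 0.04. After removal of the GC and length trend the adjusted p was 0.562 for Brk1, 0.323 for Arpc1b and 0.394 for Rac2. By the authors' deposited table, Brk1, a small subunit of the WAVE complex, rose from 407.8 to 540.8 normalized counts (0.40 on the log2 scale, SE 0.11, adjusted p = 0.00865). Arpc1b, an Arp2/3 complex subunit that overlaps Pdap1 on the opposite strand, rose from 2361 to 3090 by the authors' deposited table (0.39 on the log2 scale, SE 0.13, adjusted p = 0.0416). Rac2, the Rac protein of blood cells, rose from 1609 to 2076 by the authors' deposited table (0.36 on the log2 scale, SE 0.12, adjusted p = 0.0439). Without the deposited filter the adjusted p was 0.0656 for Arpc1b and 0.0693 for Rac2. The abundant genes Nckap1l, of the same WAVE complex, and Cdc42 stood at -0.08 (SE 0.10) and at 0.04 (SE 0.13) on the log2 scale by the authors' deposited table.

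No gene of the other 3 lists was past the threshold, and the values that follow are the log2 fold changes of the authors' deposited table. Of other receptors and surface proteins listed with Fcer1g and Tyrobp, 15 of 19 were tested. An unadjusted p under 0.05 was found for 1 of the 15, against 22.8% of all genes tested. Their median log2 fold change was 0.09, with Csf1r, the receptor for the macrophage growth factor, at -0.0038 (SE 0.15) and Cd68 at 0.09 (SE 0.16). Of the tested genes, the one with the unadjusted p under 0.05, named for that, was Clec4n, a fungal receptor that signals through Fcer1g. It had 56.9 normalized counts after room air and 248.0 after smoke (2.13, SE 0.85, adjusted p = 0.0965). Trem3, at 0.90 and 6.48 normalized counts, had an unadjusted p of 0.0024 in the authors' fit but no adjusted p, and so was not counted. All 12 inhibitory receptors were tested, 1 with an unadjusted p under 0.05 against the same 22.8% of all genes, and their median was -0.19. By the mean of both groups the most abundant were Lilrb4a, at -0.28 (SE 0.16, adjusted p = 0.316), which is uncertain because a second gene lies over it on the same strand, and Sirpa, the receptor for the signal of CD47, at -0.11 (SE 0.13). The gene with the unadjusted p under 0.05, named for that, was Lilr4b, a near relative of Lilrb4a, at -0.35 (SE 0.13, adjusted p = 0.0619). Of 11 other immunoglobulin receptors and related genes 4 were tested, 0 of them with an unadjusted p under 0.05, against 22.8% of all genes. They included B2m, the light chain that pairs with Fcgrt, at 0.02 (SE 0.17) and Lgals3 at 0.35 (SE 0.19, adjusted p = 0.275).

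**Figure D3:**
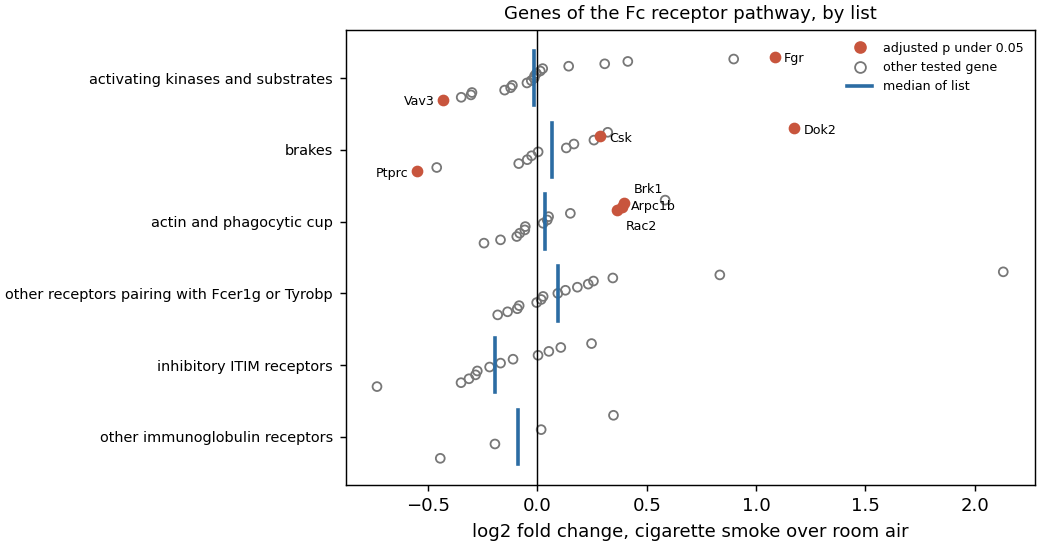
Log2 fold change of cigarette smoke over room air in the deposited table (x axis) for the tested genes of 6 pathway lists (y axis). Filled points, labelled by gene, are past an adjusted p of 0.05, open points are other tested genes, and bars mark the list medians, which run from -0.19 to 0.09.

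Splicing was given per library, as the percent inclusion of each event by JuncBASE, a program that sorts alternative events from junction reads. The 17 events lay in Fcgr2b (7), Fcgrt (4), Syk (3), Fcgr3 (2) and Fcer1g (1), and none in Fcgr1, Fcgr4 or Tyrobp. Several of them share junctions and so are not independent. No event passed a Benjamini-Hochberg adjusted p of 0.05 in limma (lowest 0.524, over all 10376 events), as was true of all 10376 (0%), and 0 of the 17 had an unadjusted p under 0.05, against 10.8% of all events. Over all events, unlike the members, some passed in alternative fits such as the one without cigarette smoke replicate 3. The authors' deposited table likewise had no member event with an unadjusted p under 0.05, which 4.15% of all 10376 events had. The groups did not overlap in 2 of 17 events (11.8%), against 22.8% of all events. Cigarette smoke replicate 1 had no value in 9 of the 17, and the other libraries had a value in every one. Over the whole table it lacked a value in 4169 events, while each of the other libraries lacked 1 to 398. The read depth behind each level is unknown.

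Fcgr2b is known in 2 main forms: the form with the tail insert stays at the cell surface and predominates in B cells, and the form without it is taken up by endocytosis and predominates in macrophages. The 141-base exon was included at 21.2%, 18.2% and 21.8% in room air replicates 1, 2 and 3, and at 35.3%, 30.3% and 4.71% in smoke replicates 1, 2 and 3. The room air libraries lay within a few points of each other, 2 smoke libraries lay above all of them and 1 lay far below, so the groups overlapped. The means were 20.4% ± 1.93 (SD, n = 3) and 23.4% ± 16.4 (SD, n = 3), and inclusion of the full exon stayed below skipping in all 6 libraries. In limma the log2 odds of inclusion differed by -0.12 (SE 0.90, adjusted p = 0.957), opposite in sign to the difference of the means of 3.06 percentage points. Without cigarette smoke replicate 3 the difference was 0.90 log2 odds (SE 0.27, adjusted p = 0.135).

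The short form of the exon, with its first 57 bases, was set against the same skipping junction of Fcgr2b. It stood at 14.6%, 8.99% and 11.6% in room air replicates 1 to 3 and at 26.7%, 17.9% and 2.41% in smoke replicates 1 to 3. The same smoke library was again the lowest and the other smoke libraries were the highest. Both events share the skipping junction and the start of the exon, so this repeat is not a separate observation. A junction into that start cannot tell the forms apart, so the level is not the share of the short form alone. The room air mean was 11.7% ± 2.80 (SD, n = 3) against 15.6% ± 12.3 (SD, n = 3) after smoke, which is 0.03 log2 odds in limma (SE 0.93, adjusted p = 0.991). Without cigarette smoke replicate 1 or 2, the difference turned to -0.66 or -0.31 log2 odds, and without replicate 3 it was 1.05.

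JuncBASE also set against each other the donors that are joined to the next Fcgr2b exon, and the level of the donor of the full exon was 76.9%, 88.0% and 90.5% in room air and 77.8% and 76.9% in smoke replicates 2 and 3. The level of the donor of the short form was 23.1%, 12.0% and 9.52% in room air and 22.2% and 23.1% in those smoke libraries. Room air replicate 1 thus resembled the smoke libraries, and the difference for the full donor, of -0.80 log2 odds, had an adjusted p of 0.623 (limma). It was -1.22 without room air replicate 1 and -0.51 without room air replicate 3. A donor further upstream, joined here by an unannotated junction, stood at 7.69% in room air replicate 1 and at 0% in the other 4 libraries with a value. In room air replicate 1 the deposited levels of these donors add to more than 100%, so they are not shares of a single total there.

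Introns beside this exon of Fcgr2b were also scored for retention. The intron that follows the exon (170961234 to 170963324, 2091 bases) was retained at 16.7%, 8.33% and 9.52% in room air and at 0% and 28.6% in smoke replicates 2 and 3. The smoke libraries lay on either side of all room air libraries, and the difference was -1.08 log2 odds (limma, SE 1.57, adjusted p = 0.756), while the means differed by 2.78 percentage points. It was 1.60 without cigarette smoke replicate 2 and -3.76 without replicate 3, each from the 1 smoke library that was left, which is assumed to vary like the others. The whole stretch of 4468 bases that is spliced out when the exon is skipped stood at 6.82%, 5.81% and 6.15% in room air and at 8.33%, 0% and 2.02% in cigarette smoke replicates 1, 2 and 3 (adjusted p = 0.548).

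The 69-base exon of Syk separates the long form of the kinase from a short form that lacks part of the linker and binds phosphorylated tyrosine motifs less well. Inclusion was 95.1%, 94.5% and 93.5% in room air replicates 1 to 3 and 100%, 93.3% and 95.1% in smoke replicates 1 to 3. The long form was the major form in every library. The room air mean was 94.4% ± 0.810 (SD, n = 3) against 96.1% ± 3.46 (SD, n = 3) after smoke, which is 0.92 log2 odds in limma (SE 0.85, adjusted p = 0.633). Without cigarette smoke replicate 1, the library at 100%, the difference was -0.03.

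Syk also has alternative noncoding first exons. The internal one (52596853 to 52597054) was used at 44.0%, 34.9% and 33.3% in room air and at 20.0%, 26.7% and 34.5% in cigarette smoke. The groups overlapped through cigarette smoke replicate 3, which lay above room air replicate 3. The means were 37.4% ± 5.77 (SD, n = 3) and 27.1% ± 7.27 (SD, n = 3), and the difference of -0.69 log2 odds (SE 0.50) had an adjusted p of 0.582 in limma. It was -0.43 without cigarette smoke replicate 1. A junction from the upstream first exon to an acceptor inside the internal one took 4.76%, 3.23% and 4.76% in room air and 5.56%, 0% and 2.67% in smoke (limma, adjusted p = 0.623), again with overlap.

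Fcgr3 used the upstream acceptor, which adds the codon shown in capitals, in most junction reads of every library: 89.9%, 86.7% and 92.1% in room air and 80.0%, 88.5% and 86.9% in cigarette smoke. Room air replicate 2 lay among the smoke libraries. The room air mean was 89.6% ± 2.69 (SD, n = 3) against 85.1% ± 4.50 (SD, n = 3) after smoke, which is -0.54 log2 odds in limma (SE 0.50, adjusted p = 0.630), and -0.28 without cigarette smoke replicate 1 or -0.36 without room air replicate 3. A version of this event that also counts exon reads gave 81.1% and 74.2% as group means and an adjusted p of 0.623.

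In Fcgrt, the donor that adds 4 codons took 4.76%, 15.4% and 8.11% of junction reads in room air and 27.3% and 15.7% in cigarette smoke replicates 2 and 3. Both smoke values lay above the room air values, by a margin of less than 1 percentage point at the nearest, and this was 1 of the 2 events without overlap. The means were 9.42% ± 5.43 (SD, n = 3) and 21.5% ± 8.19 (SD, n = 2), and the difference of 1.40 log2 odds (SE 0.73) was the one with the lowest p of the 17, at 0.108 (limma, adjusted p = 0.524). It was 0.91 without cigarette smoke replicate 2, which leaves 1 smoke library. With exon reads counted as well, the levels of the groups overlapped, with means of 7.28% and 14.7% (adjusted p = 0.582). Of the other Fcgrt events, an acceptor that adds 270 bases, with 1 of 2 junctions annotated, stood at 0% to 4.26% in room air. In smoke it stood at 9.09% and 2.04% (limma, adjusted p = 0.666). An upstream acceptor was used at 94.4% to 100% in all 5 libraries with a value (limma, adjusted p = 0.666).

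The other event without overlap was in Fcer1g, at the intron that follows the extended exon (171230088 to 171230921). Its retention was 52.2%, 62.2% and 46.4% in room air and 36.8% and 44.4% in cigarette smoke replicates 2 and 3. Both smoke values lay below the lowest room air value. The room air mean was 53.6% ± 7.96 (SD, n = 3) against 40.6% ± 5.37 (SD, n = 2) after smoke, which is -0.75 log2 odds in limma (SE 0.58, adjusted p = 0.617). The event sets reads across the ends of this intron against the junction of the extended exon alone, not against the standard junction, so its level is not the share of Fcer1g transcripts that keep an intron.

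**Figure D4:**
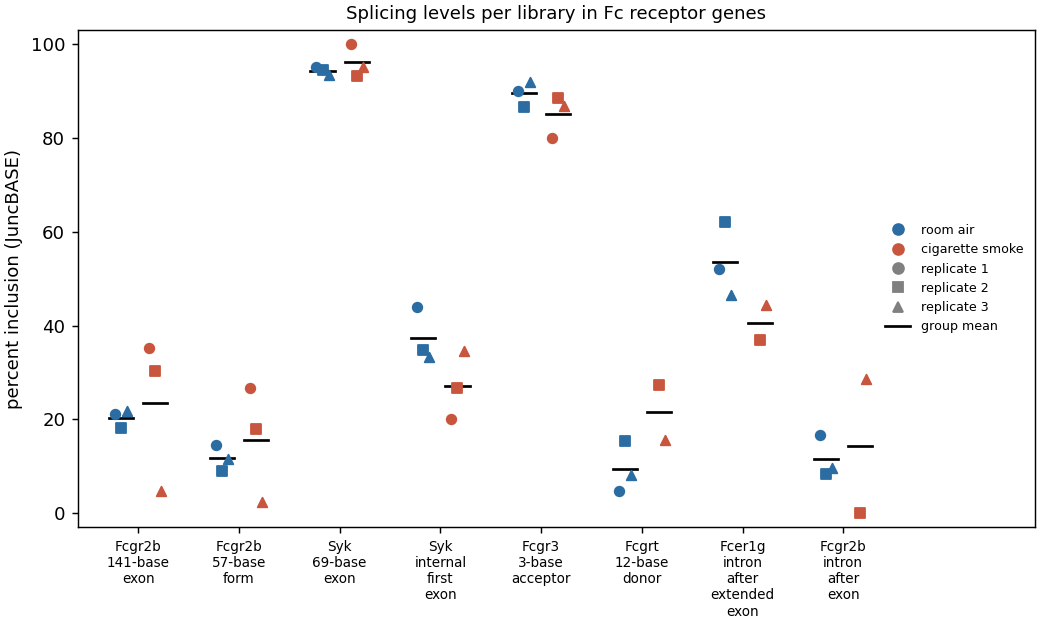
Percent inclusion by JuncBASE (y axis) of 8 splicing events (x axis), with a point for each library, colour for the group, symbol for the replicate and a bar for the group mean. The Fcgr2b forms in smoke span 4.71% to 35.3% and 2.41% to 26.7%, and only the Fcgrt donor and the Fcer1g intron show no overlap of the groups. Events with 2 smoke points had no value in cigarette smoke replicate 1.

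The authors' deposited rMATS table listed 4 retained introns in these genes, in Fcgr1, Fcgr2b, Fcgr4 and Tyrobp. None was past a false discovery rate of 0.05, which 14.5% of the 3887 introns were, and all 4 had an unadjusted p and a false discovery rate of 1. The differences between sample set 1 and sample set 2 in the authors' deposited table were 2.7 percentage points for Fcgr1, -5.4 for Fcgr2b, 0.6 for Fcgr4 and 4.1 for Tyrobp, and which group each set holds is not stated. The Fcgr4 intron (chromosome 1, 171019020 to 171019527) is the only one of the 4 annotated as an intron in GENCODE M21.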

How the data were processed

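Total RNA of 6 macrophage cultures was made into directional libraries and sequenced, per the labels' protocols; whether poly(A) RNA was selected is not given in the sources used here. The submitters' processing notes name STAR, DESeq2 and the build mm10. The authors deposited, as a signal, the mean of size-factor-normalized counts per group, and the log2 fold change, its standard error, a Wald score and p-values from a fit to 24 libraries, of which 18 are not analysed here and whose spread entered the errors. They also deposited percent inclusion per library from JuncBASE and an rMATS table of retained introns; other deposited values are the differences between groups. The 6 per-sample columns of the rMATS table were not used, because the groups of its sets are not stated.

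Expression calls are the authors' own, at an adjusted p under 0.05, since no value per library was used here; the deposited fold changes are named as shrunken estimates. JuncBASE levels p were turned into log2((p + 1)/(100 - p + 1)) and fitted over all 10376 events with limma 3.58.1 in R 4.3.3, with Benjamini-Hochberg adjustment. Events were placed by overlap with GENCODE M21 genes on GRCm38, the build of mm10; 98.7% of events marked as known had their first exclusion junction in that annotation. A trend of the log2 fold changes in transcript GC content and length (natural cubic regression splines of 4 degrees of freedom, weighted by the deposited standard errors, statsmodels 0.14.6) was removed as an alternative over 12071 genes. Both procedures were tested on simulated data, where the limma fit missed all but large differences in splicing, so that events without a call are not shown to be alike in the groups. Named genes are the members, the list genes past the threshold (at most 4 a list) and the 2 most abundant of each list. Spi1, Mrc1, Lilr4b, Clec4n and Trem3 were added after their values were seen. The members and lists were chosen with earlier results of these data known.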

Additional observations from a re-analysis of the deposited data

How the results depend on the processing

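No member was called in 5 alternatives for expression, 12 for JuncBASE events (0 to 0 events with each library left out in turn) and 2 for rMATS introns. The stricter thresholds among these could not add a call, and with 3 libraries a group a count of 0 is no sign of stability. The pathway lists held 8 calls, 4 without the deposited low-count filter, 3 at an adjusted p under 0.01 and 0 after the GC and length trend was removed, although Fgr and Dok2 then still stood at 1.01 and 0.86 on the log2 scale. That removal turned the sign of 4 log2 fold changes, to -0.063 for Fcer1g, -0.018 for Fcgrt, -0.00056 for Syk and -0.098 for Tyrobp, and the cause was not tested. Of 193 values of single events, 9 changed sign. On untransformed percent the Fcgr2b exon differed by 3.06 and the intron after it by 2.78 percentage points. The 57-base form gave -0.0097 log2 odds with a pseudocount of 0.5, -0.16 without room air replicate 2, -0.66 without cigarette smoke replicate 1 and -0.31 without replicate 2, in a range of -0.66 to 1.05 over the libraries left out. The other sign changes were 0.90 for the Fcgr2b exon without cigarette smoke replicate 3 (range -0.71 to 0.90), 1.60 for the intron after it without replicate 2 (range -3.76 to 1.60) and -0.030 for the Syk exon without replicate 1 (range -0.030 to 1.49). With 1 library left out, values that kept their sign moved by over 1.5 times in further events. They ranged from 0.052 (without cigarette smoke replicate 2) to 1.89 (without replicate 3) for the Fcgrt acceptor that adds 270 bases. For the Fcgrt donor with exon reads they ranged from 0.56 to 1.74 without these same libraries, with 0.57 without room air replicate 1. They ranged from -2.14 (without cigarette smoke replicate 1) to -0.47 (without replicate 2) for the 4468-base stretch of Fcgr2b, and from -1.48 to -0.085 without these same libraries for the Syk junction into the internal first exon. The lowest adjusted p of a member event was 0.0603, for the 2091-base intron of Fcgr2b without cigarette smoke replicate 3. For this intron and the Fcgrt events, which have no value in cigarette smoke replicate 1, leaving out replicate 2 or 3 compares 1 smoke library, assumed to vary like the others, with 3 of room air, so these values and this p say little. Over all events, the count of calls went from 0 to 1064 without cigarette smoke replicate 3, to 23 with values in all 6 libraries and to 5 on untransformed percent. Without replicate 3, events that have no value in cigarette smoke replicate 1 rest on 1 smoke library. Libraries of the same number showed no shared deviation (correlations of 0.018, -0.040 and -0.089 over 5933 events). These values cannot settle whether such libraries were handled together, and the main fit used no pairing. With a replicate block 0 member events were called, and the unadjusted p in limma was under 0.05 for 800 events in place of 1125. The depth behind each level is unknown.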
